A study of Arabidopsis with 36 samples.

Results

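The 9 genes described here are NATA1 (AT2G39030), NATA2 (AT2G39020), AT3G59930, AT5G33355, AT3G16660, AT3G16670, AT2G04040, AT2G04050 and UGT74E2 (AT1G05680) of Arabidopsis thaliana. They were picked out of the 24532 genes of the expression matrix for the largest changes of Col-0 shoots at 28 °C, together with near paralogs. The Col-0 shoot values therefore chose them and are given as a description, with no test. By the log2 fold change of 28 °C over 21 °C in Col-0 shoots, NATA1 ranked 1 and AT3G59930 ranked 2 among the rises of 16817 genes, while AT3G16670, AT2G04050 and UGT74E2 ranked 1, 2 and 3 among the falls. The remaining 4 genes were taken as their relatives, and AT2G04040 ranked 54 among the falls.

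RNA of roots and of shoots was sequenced from seedlings of the wild type Col-0, of hy5-215, a HY5 mutant in the Col-0 background that makes no HY5 protein, and of chl1.5 (the allele also written chl1-5), a loss-of-function mutant of the nitrate transporter NRT1.1. Plants of every group were kept at 21 °C for the first 4 days, and for the next 5 days they stayed there or were moved to 28 °C, a high ambient temperature that is not a heat shock. Each of the 12 groups of genotype, organ and temperature holds 3 replicates, which makes 18 shoot and 18 root libraries, and about 50 roots were pooled for each root replicate according to the labels. Levels are RPKM (reads scaled to the length of the gene and the depth of the library), and fold changes were fitted on log2(RPKM + 1) with limma, with p-values adjusted over all genes tested. A gene rose or fell if the adjusted p was under 0.05 and the absolute log2 fold change above 1, whereas a difference between 2 responses needed the adjusted p alone.

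NATA1 is an acetyltransferase that acetylates ornithine and polyamines and is known as a target of jasmonate, the hormone of wounding and defence, and NATA2 is its paralog. AT3G59930 and AT5G33355 encode small secreted defensin-like proteins. AT3G16660 and AT3G16670 encode proteins of the Pollen Ole e 1 allergen and extensin family, AT2G04040 (DTX1) and AT2G04050 are multidrug and toxic compound extrusion (MATE) carriers, and UGT74E2 glucosylates the auxin precursor indole-3-butyric acid and is known to respond to oxidative stress. A bulk library averages over all cells of an organ, so fewer cells of a type and less RNA per cell cannot be told apart.

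The libraries held 51.8 to 84.7 M reads in shoots (median 72.5 M) and 61.1 to 89.3 M in roots (median 72.3 M) (M, mega). Of 4 shoot markers, RBCS1A and CAB1 were at 10039.7 RPKM or more in every shoot library and at most 252 and 168 RPKM in roots, and GLDP1 was at 285 to 465 RPKM in shoots and 14.9 to 27 RPKM in roots. CA1 was at 0.632 RPKM or less in roots. Of 5 root markers, CASP1 was at 96.2 to 170 RPKM in roots and at 1.36 to 11.1 RPKM in shoots, SHR was at 4.96 to 8.42 RPKM in shoots, and PLT1, EXPA7 and COBL9 were at 0.474 RPKM or less there. Root libraries of chl1.5 held at most 4 reads on NRT1.1 (AT1G12110). The shoots labelled chl1.5 held 13 to 13.8 RPKM of NRT1.1 at 21 °C and 18.5 to 19.4 RPKM at 28 °C, against 17.5 to 17.9 and 7.19 to 7.53 RPKM in Col-0 shoots, so the transcript goes against the genotype label in shoots. They are called shoots labelled chl1.5 below, and the direction of any comparison with them rests on that label. HY5 transcript was lower in hy5-215 roots (6.34 to 8.30 RPKM) than in Col-0 roots (24.1 to 50.3 RPKM), and in hy5-215 shoots at 28 °C (4.76 to 5.68 against 7.93 to 8.25 RPKM), but not in hy5-215 shoots at 21 °C (5.49 to 5.96 against 4.67 to 4.99 RPKM).

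At 28 °C, 7 of the 9 genes changed in hy5-215 shoots and 5 of 9 in shoots labelled chl1.5. NATA1 and AT3G59930 rose in both. AT3G16670, AT2G04050 and UGT74E2 fell in both, and AT5G33355 and AT2G04040 fell in hy5-215 shoots by this rule. Of all 16817 genes tested, 6.15% changed in hy5-215 shoots (4.23% rose and 1.92% fell) and 4.74% in shoots labelled chl1.5 (2.43% rose and 2.31% fell). In Col-0 shoots, whose values chose the genes, 5.24% passed the same limits. The responses of hy5-215 and of the shoots labelled chl1.5 differed for 8 of the 9 genes, where they did for 42% of all genes. NATA1 reached the mean of 1 RPKM needed for a fit only through the 28 °C libraries (0.014 RPKM without them), AT3G16670 through those at 21 °C (0.949 RPKM without them), and AT5G33355 through hy5-215 (0.421 RPKM without it) and through 21 °C (0.502 RPKM). The genes were also chosen on Col-0 shoots grown beside these, so the counts are a description and no test of the group.

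**Figure D1:**
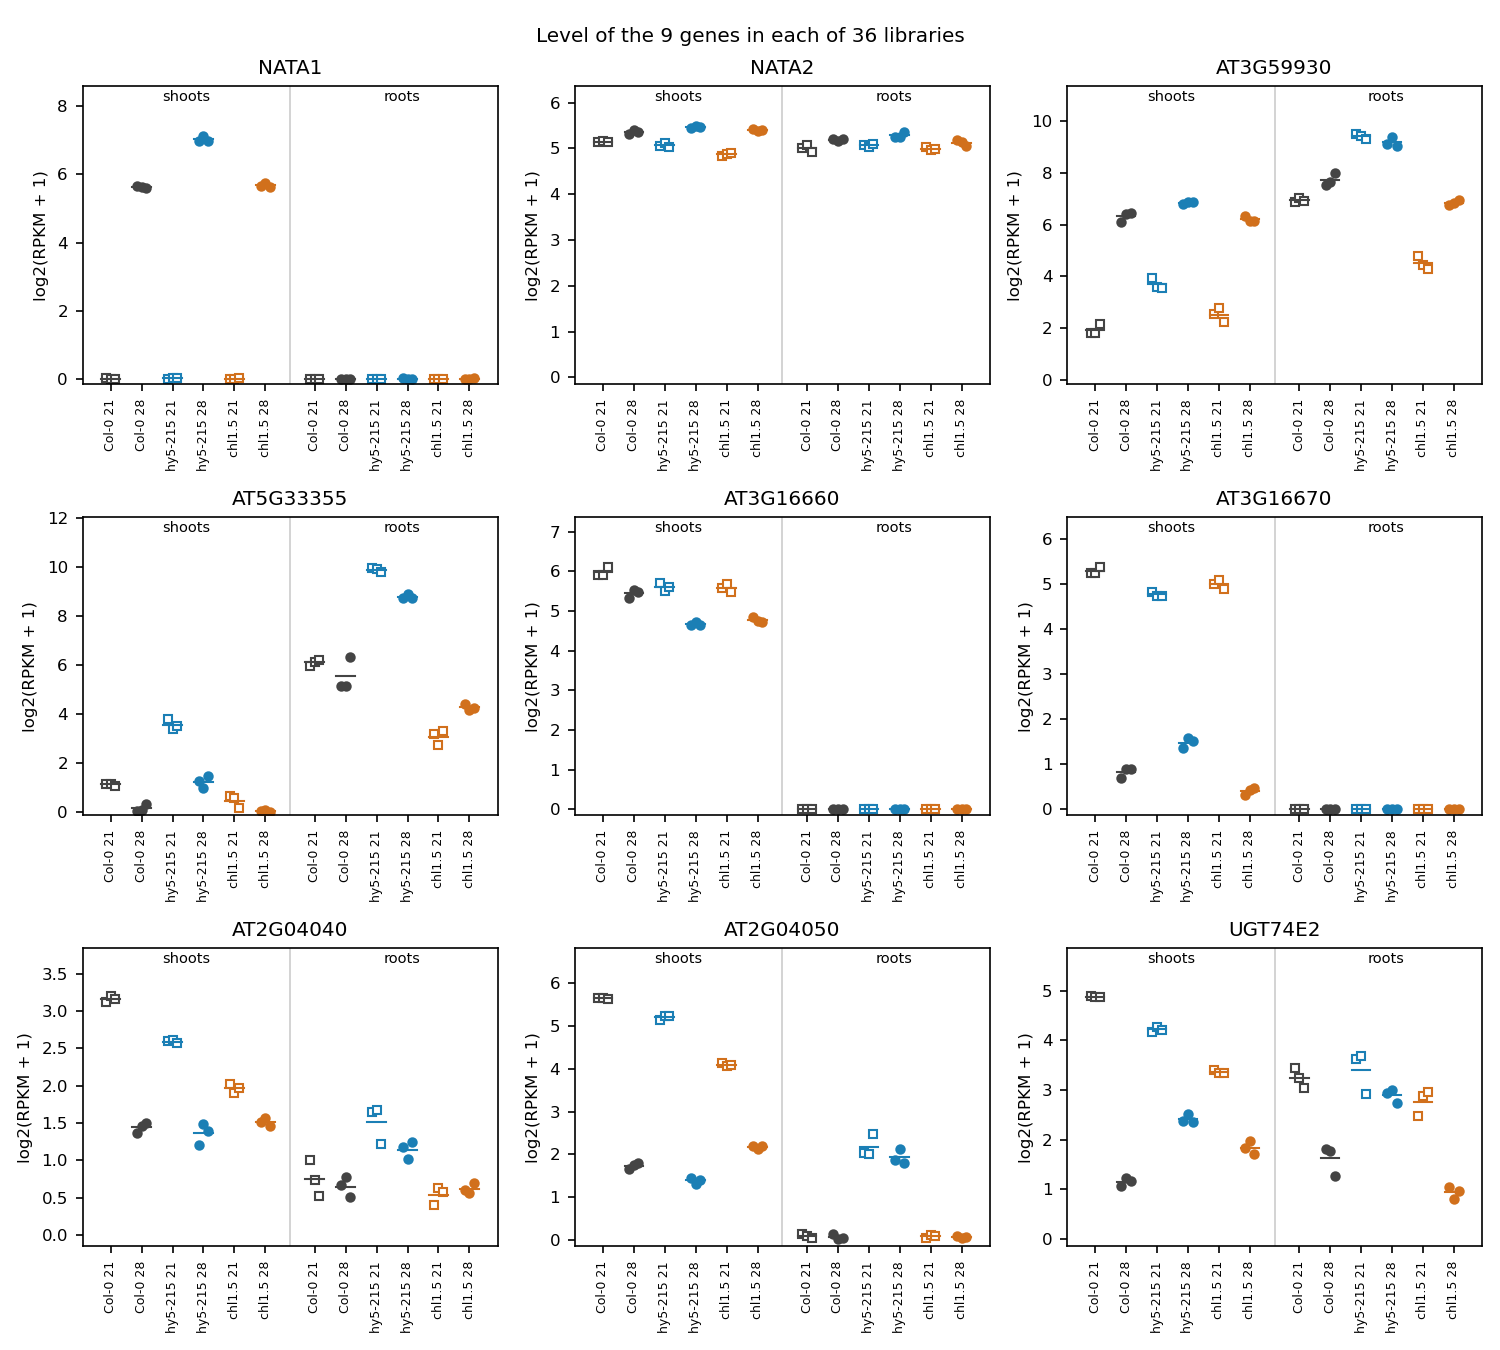
Level of each of the 9 genes in each of the 36 libraries, as log2(RPKM + 1), by genotype and temperature in °C (open squares 21, filled circles 28), with shoots left and roots right of the grey line. Bars are means of 3 replicates. NATA1, AT3G16660 and AT3G16670 lie at 0 in roots, and AT3G59930 and AT5G33355 are highest in hy5-215 roots. Shoots marked chl1.5 are so labelled although they held NRT1.1 transcript.

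NATA1 was at a few reads in shoots at 21 °C and well expressed at 28 °C. Col-0 shoots held 2, 0 and 0 reads of NATA1 at 21 °C and 49.6, 48.5 and 47.1 RPKM at 28 °C (3156 to 3981 reads). Shoots of hy5-215 held 1, 2 and 2 reads at 21 °C and 125, 137 and 125 RPKM at 28 °C. Shoots labelled chl1.5 held 1, 0 and 2 reads at 21 °C and 49.6, 52.2 and 48.5 RPKM at 28 °C. The temperatures did not overlap in any genotype, and at 28 °C the 3 hy5-215 libraries stood above the other 6, which overlapped each other.

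Over the summed reads, the ratio of 28 °C to 21 °C was 6176 in hy5-215 shoots, with a 95% counting interval from 2646 to 19021, and 3693 (1264 to 17912) in shoots labelled chl1.5. These intervals cover counting error only, and the 2 overlap. In Col-0 shoots the ratio was 6546 (1812 to 54062). On the log2(RPKM + 1) scale the change of NATA1 was 6.99 in hy5-215 shoots (SE 0.037) and 5.65 in shoots labelled chl1.5 (SE 0.037). It ranked 1 among the rises of both. These sizes depend on the pseudocount, since the level at 21 °C is near 0. NATA1 was fitted in shoots only because the 28 °C libraries were high (0.014 RPKM without them), so both changes are given as values. With all genes fitted and no filter, the adjusted p was 4.45e-22 in hy5-215 shoots and 1.01e-20 in shoots labelled chl1.5. At 28 °C the level was 129 ± 7.12 RPKM in hy5-215 shoots (SD, n = 3) and 50.1 ± 1.86 RPKM in shoots labelled chl1.5. The log2 difference was 1.34 (adjusted p = 1.65e-13 with no filter), or 2.57-fold. In Col-0 shoots the level was 48.4 ± 1.24 RPKM. The difference of the responses, hy5-215 minus shoots labelled chl1.5, was 1.33 on the log2(RPKM + 1) scale (SE 0.052, adjusted p = 3.38e-11 with no filter). It was 0.71 with limma voom on the reads (adjusted p = 0.383), where a few reads at 21 °C set both responses.

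In roots NATA1 held between 0 and 2 reads in each of the 18 libraries at either temperature. The root libraries held up to 438 RPKM of the 4 shoot markers summed, at 28 °C in Col-0, and still at most 1 read of NATA1 in that group. No fold is given for roots, where all groups lay at or under 3 reads per library.

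NATA2, which lies next to NATA1 on chromosome 2 with a gap of 1614 bp and no gene in between, was present in every library. Its levels in shoots at 21 °C were 34.1 to 34.5 RPKM in Col-0, 31.6 to 33.7 RPKM in hy5-215, and 27.4 to 29 RPKM in shoots labelled chl1.5. At 28 °C they were 38.9 to 41.4 RPKM in Col-0, 42.6 to 44.2 RPKM in hy5-215, and 40.4 to 41.9 RPKM in shoots labelled chl1.5. Every 28 °C library stood above every 21 °C library of its genotype, by a small margin. The log2 fold change was 0.41 in hy5-215 shoots (SE 0.030, adjusted p = 7.71e-10) and 0.53 in shoots labelled chl1.5 (SE 0.030, adjusted p = 2.18e-11), below the limit on size in both. They differed by -0.12 (adjusted p = 0.0239), which did not hold without any 1 of 4 libraries (adjusted p between 0.0569 and 0.0698) or after rescaling by the median of ratios (adjusted p = 0.134).

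In roots NATA2 was at 29.5 to 33.4 RPKM at 21 °C and 32.1 to 40.01 RPKM at 28 °C over the 3 genotypes, with log2 fold changes of 0.18 in Col-0 (adjusted p = 0.00237), 0.22 in hy5-215 (adjusted p = 0.000662) and 0.13 in chl1.5 (adjusted p = 0.020). The level of NATA1 relative to NATA2, per length of gene, was at most 0.00102 in any library at 21 °C or in roots. In shoots at 28 °C it was 1.2 in Col-0, 2.96 in hy5-215 and 1.21 in shoots labelled chl1.5. The sequences of the 2 genes were not compared here, so whether reads of one could be counted for the other is uncertain.

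**Figure D2:**
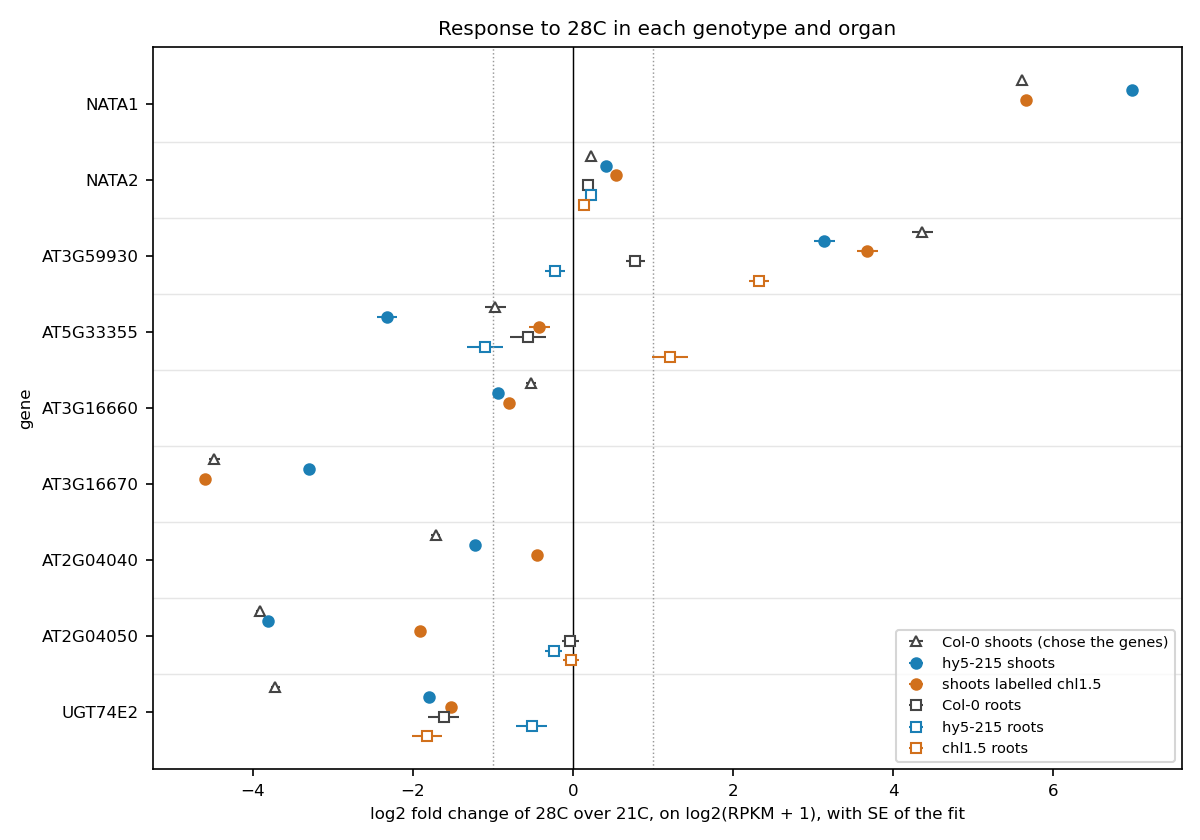
Log2 fold change of 28 °C over 21 °C for each gene on the log2(RPKM + 1) scale, with the standard error of the fit as bars (some shorter than the symbol). Triangles are Col-0 shoots, which chose the genes, circles the hy5-215 shoots and the shoots labelled chl1.5, and squares the roots, and dotted lines mark 1 and -1. AT3G59930 lies right of 1 in all shoots and in chl1.5 roots, and AT5G33355 lies right of 1 in chl1.5 roots only. Genes with no root symbol were too low in roots to be fitted.

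Genes of the jasmonate pathway rose with NATA1 in these shoots. Of 35 genes on a list of jasmonate synthesis, signalling and targets, 27 were tested in shoots. MYC2, TPS04, ERF1, ORA59, PDF1.2A, PDF1.2B, PDF1.2C and PDF1.3 did not reach a mean of 1 RPKM there and were not tested. Of the 27 tested genes, 21 rose and none fell in hy5-215 shoots, and 13 rose and none fell in shoots labelled chl1.5. The median log2 fold change of the list was 1.64 and 0.84, beside 0.08 and 0.10 over all genes tested. The largest rises in hy5-215 shoots were those of VSP1 (4.33, adjusted p = 1.10e-24) and VSP2 (3.75, adjusted p = 4.92e-24), which encode vegetative storage proteins, and of CORI3, a coronatine-induced C-S lyase (4.26, adjusted p = 2.39e-22). In shoots labelled chl1.5 they were those of CORI3 (3.4), of AOC2, an allene oxide cyclase of jasmonate synthesis (2.83), and of the lipoxygenase LOX2 (2.38). The response was larger in hy5-215 for 24 of the 27 genes and smaller for none, where it was larger for 20.2% of all genes. This list was chosen with earlier results of these data known.

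**Figure D3:**
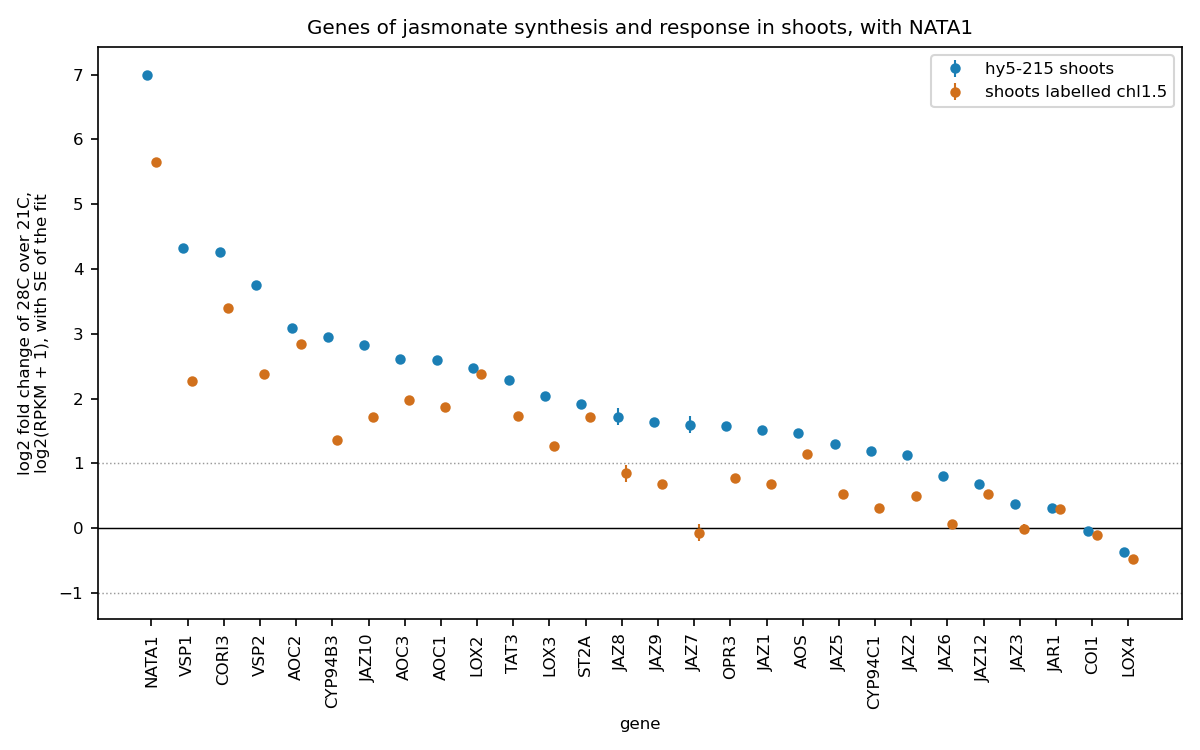
Log2 fold change of 28 °C over 21 °C, on the log2(RPKM + 1) scale with the standard error of the fit, of NATA1 and 27 genes of jasmonate synthesis, signalling and response in hy5-215 shoots and in shoots labelled chl1.5. Dotted lines mark 1 and -1. No gene lies below -1, and NATA1 lies above the rest in both.

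In roots the same list gave 2 rises and 2 falls among 20 tested genes in Col-0, where 4.23% of all genes changed in either direction. It gave 8 and 1 in hy5-215 (3.2% of all genes) and 4 and 0 in chl1.5 (5.34% of all genes), while NATA1 stayed at 0 to 2 reads. The largest changes were the rises of ST2A, a sulfotransferase, in Col-0 roots (1.41, adjusted p = 5.54e-07) and of VSP2 in hy5-215 roots (2.46, adjusted p = 5.51e-05).

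NATA1 acts on ornithine and putrescine, metabolites of the arginine and polyamine pathway. Of 26 tested genes of polyamine, ornithine and arginine metabolism, 3 rose and none fell in hy5-215 shoots, where 4.23% of all genes rose and 1.92% fell. They were ARGAH2, an arginase that releases ornithine (2.96, SE 0.020, adjusted p = 4.73e-24), ADC2, an arginine decarboxylase (1.85, SE 0.023, adjusted p = 1.39e-20), and PAO2, a polyamine oxidase (1.01, SE 0.039, adjusted p = 9.32e-14). In shoots labelled chl1.5, where 2.43% of all genes rose and 2.31% fell, ARGAH2 (1.95) and ADC2 (1.42) rose. The median of the list was 0.10 and 0.11, beside 0.08 and 0.10 over all genes. In roots ADC2 moved the other way. It fell by 1.29 in Col-0 (adjusted p = 3.61e-09) and by 2.24 in chl1.5 (adjusted p = 6.78e-12), and no gene of the list passed in hy5-215 roots.

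The defensin-like genes AT3G59930, on chromosome 3, and AT5G33355, on chromosome 5, moved in opposite directions in shoots. AT3G59930 was at 2.54, 2.59 and 3.55 RPKM in Col-0 shoots at 21 °C and at 67.2, 84.7 and 85.8 RPKM at 28 °C. In hy5-215 shoots it was at 14.2, 11.1 and 10.9 RPKM at 21 °C and at 109, 115 and 116 RPKM at 28 °C. In shoots labelled chl1.5 it was at 4.86, 5.86 and 3.73 RPKM at 21 °C and at 79.8, 69.4 and 69.1 RPKM at 28 °C. The temperatures did not overlap in any genotype, and hy5-215 was the highest at both.

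The rise of AT3G59930 was 3.14 on the log2 scale in hy5-215 shoots (SE 0.130, adjusted p = 2.78e-13) and 3.68 in shoots labelled chl1.5 (SE 0.130, adjusted p = 4.15e-14). The mean RPKM was 9.40 and 15.1 times higher at 28 °C, and 27.4 times in Col-0 shoots. The response in hy5-215 was smaller by 0.54 (adjusted p = 0.0253), which did not hold without any 1 of 4 libraries (adjusted p between 0.0519 and 0.0743). At 21 °C the gene was 2.51 times higher in hy5-215 shoots than in shoots labelled chl1.5, a log2 difference of 1.18 (adjusted p = 8.59e-07).

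AT5G33355 was low in shoots and lower still at 28 °C. Its values were 1.22, 1.21 and 1.08 RPKM in Col-0 shoots at 21 °C and 0.0196, 0.0586 and 0.259 RPKM at 28 °C. In hy5-215 shoots they were 12.8, 9.37 and 10.4 RPKM at 21 °C and 1.42, 0.971 and 1.72 RPKM at 28 °C. In shoots labelled chl1.5, 28, 22 and 5 reads at 21 °C stood against 1, 2 and 0 reads at 28 °C. All 28 °C libraries lay below all 21 °C libraries of their genotype, and hy5-215 lay above the other genotypes at both temperatures.

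In hy5-215 shoots the log2 fold change of AT5G33355 was -2.32 (SE 0.128), and the mean RPKM was 7.92 times higher at 21 °C. The gene was fitted in shoots only because hy5-215 at 21 °C was high, so its shoot changes are given as values. With all genes fitted and no filter on low values, the adjusted p was 3.70e-10. In shoots labelled chl1.5 the log2 fold change was -0.42 (adjusted p = 0.0119 with no filter), under the limit on size at the pseudocount of 1. Its summed reads were 19.7 times higher at 21 °C, with a 95% counting interval from 6.40 to 98.5, and the log2 fold change was -1.85 with a pseudocount of 0.1. Which group responds more depends on the scale. The difference of hy5-215 minus shoots labelled chl1.5 was -1.90 on log2(RPKM + 1) (adjusted p = 1.45e-06 with no filter). It was -1.07 with the pseudocount of 0.1 (adjusted p = 0.120) and 0.79 with limma voom on the reads (adjusted p = 0.451).

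The sum of the 5 root markers was also lower in shoots at 28 °C. It holds SHR, at 4.96 to 8.42 RPKM in shoots and 13.4 to 19 RPKM in roots, so a large part of it is a transcript that shoots held too. The sum was 17 to 18.5 RPKM in hy5-215 shoots at 21 °C and to 8.17 to 9.13 RPKM at 28 °C, to 11.5 to 11.8 and 7.21 to 7.67 RPKM in shoots labelled chl1.5, and to 12.8 to 13.1 and 9.17 to 9.78 RPKM in Col-0 shoots. CASP1, which was at 1.36 RPKM or more in every shoot library, went from 9.88 to 11.1 RPKM down to 2.68 to 3.06 RPKM in hy5-215 shoots. AT5G33355 in shoots was 1.14% of its mean level in roots at 21 °C in hy5-215, 1.72% in Col-0 and 5.08% in the groups labelled chl1.5, and between 0.112% and 0.309% at 28 °C. For chl1.5 these shares set shoots with NRT1.1 transcript against roots without it, so a common genotype of both rests on the label. CASP1, the most abundant of these markers in roots, was between 2.78% and 6.51% of its root level at 21 °C and between 1.32% and 2.87% at 28 °C. Per length of gene, AT3G59930 was 1.11 times AT5G33355 in hy5-215 shoots at 21 °C and 82.8 times at 28 °C, against 0.703 and 1.3 times in hy5-215 roots. AT3G59930 in shoots was between 1.80% and 21.9% of its root level at 21 °C and between 19.8% and 64.5% at 28 °C. The shares of 21.9% and 64.5% are those of the groups labelled chl1.5. The part of root RNA in the shoot values of either gene was not tested.

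**Figure D4:**
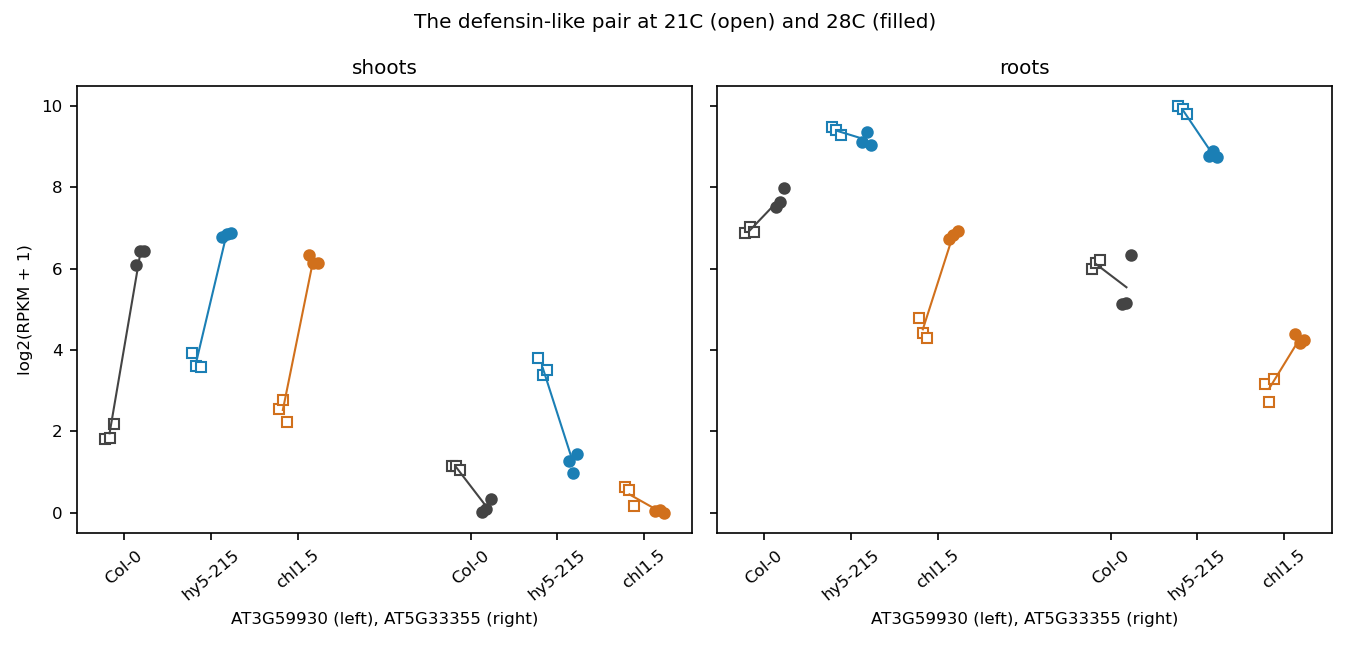
Levels of AT3G59930 (left in each panel) and AT5G33355 (right) as log2(RPKM + 1) in shoots and roots of the groups labelled Col-0, hy5-215 and chl1.5, at 21 °C (open squares) and 28 °C (filled circles), 3 replicates each, with lines between the means. The lines of the genes slope in opposite directions in shoots. In roots hy5-215 lies highest and chl1.5 lowest for both genes at both temperatures.

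In roots both defensin-like genes differed by genotype. At 21 °C, AT3G59930 was at 117, 129 and 118 RPKM in Col-0 roots, at 708, 683 and 625 RPKM in hy5-215 roots and at 26.6, 20.5 and 18.8 RPKM in chl1.5 roots. AT5G33355 was at 62.1, 69.4 and 72.8 RPKM in Col-0 roots, at 1015, 966 and 885 RPKM in hy5-215 roots and at 7.99, 5.58 and 8.82 RPKM in chl1.5 roots. The 3 genotypes did not overlap for either gene.

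Against Col-0 roots at 21 °C, AT3G59930 was higher in hy5-215 by 2.46 on the log2 scale (SE 0.124, adjusted p = 2.10e-10) and lower in chl1.5 by 2.43 (log2 difference -2.43, SE 0.124, adjusted p = 3.79e-09). For AT5G33355 the log2 differences were 3.79 (SE 0.225, adjusted p = 1.51e-09) and -3.05 (SE 0.225, adjusted p = 3.08e-07). The mean RPKM of AT5G33355 was 14 times higher in hy5-215 and 9.13 times lower in chl1.5. Of all 17742 genes, 3.05% differed between hy5-215 and Col-0 roots (1.3% higher in hy5-215) and 0.558% between chl1.5 and Col-0 roots (0.22% lower in chl1.5).

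At 28 °C the genotypes lay closer together in roots. AT3G59930 was at 181, 198 and 253 RPKM in Col-0 roots, at 550, 651 and 524 RPKM in hy5-215 roots and at 106, 112 and 120 RPKM in chl1.5 roots. AT5G33355 was at 34.2, 34.8 and 79.1 RPKM in Col-0 roots, at 432, 474 and 425 RPKM in hy5-215 roots and at 20.1, 17.1 and 18.1 RPKM in chl1.5 roots. The order of genotypes was that at 21 °C, still with no overlap, and the third Col-0 replicate stood apart for AT5G33355.

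In chl1.5 roots AT3G59930 rose by 2.32 (SE 0.124, adjusted p = 3.45e-10) and AT5G33355 by 1.21 (SE 0.225, adjusted p = 0.000181). In hy5-215 roots AT5G33355 fell by 1.1 (SE 0.225, adjusted p = 0.000553; -0.97 with quantile normalization, under the limit), and AT3G59930, whose temperatures overlapped, was at -0.23 (adjusted p = 0.120). In Col-0 roots the log2 fold changes were 0.78 for AT3G59930 (adjusted p = 4.46e-05) and -0.57 for AT5G33355 (adjusted p = 0.0361, and 0.0545 with no filter), both under the limit on size. Without the third Col-0 replicate at 28 °C the value of AT5G33355 was -0.96 (adjusted p = 1.09e-05).

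The response of AT3G59930 was larger in chl1.5 than in Col-0 roots by 1.54 (SE 0.175, adjusted p = 0.000257), and that of AT5G33355 by 1.78 (SE 0.319, adjusted p = 0.00790; 2.17 without the third Col-0 replicate at 28 °C). In hy5-215 the response of AT3G59930 was smaller than in Col-0 by 1.01 (log2 difference -1.01, SE 0.175, adjusted p = 0.000999), and for AT5G33355 the difference was -0.54 (SE 0.319, adjusted p = 0.252). Of all genes, 2.35% differed in response between chl1.5 and Col-0 roots (0.975% with the larger value in chl1.5) and 20.4% between hy5-215 and Col-0 roots. These comparisons share the Col-0 libraries.

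Between organs, the response of AT3G59930 was smaller in roots than in shoots, by 3.37 in hy5-215 (log2 difference -3.37, adjusted p = 5.49e-15) and by 1.36 in the groups labelled chl1.5 (log2 difference -1.36, adjusted p = 4.75e-07). For AT5G33355 it was higher in roots by 1.22 (adjusted p = 0.000335) and 1.63 (adjusted p = 6.99e-06). For chl1.5 these values join roots without and shoots with NRT1.1 transcript, so organ and genotype cannot be told apart in them. Of all 18173 genes, 62.3% in hy5-215 and 65.8% in the groups labelled chl1.5 differed in response between the organs.

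Of 11 canonical plant defensins, only 4 reached 1 RPKM in shoots and 5 in roots. PDF1.4 rose in hy5-215 shoots (4.54, adjusted p = 3.48e-21), from 1.57 ± 0.040 to 58.9 ± 2.9 RPKM (SD, n = 3), and in shoots labelled chl1.5 (3.13, adjusted p = 1.00e-18). PDF2.1 fell in shoots labelled chl1.5 by 2.14 (adjusted p = 8.25e-13). In roots PDF1.4 rose and PDF2.1 fell in all 3 genotypes. The rises of PDF1.4 were 2.07 in Col-0, 2.74 in hy5-215 and 1.74 in chl1.5, and PDF2.1 fell by 1.75, 1.12 and 2.15. Neither differed between hy5-215 and Col-0 or chl1.5 and Col-0 roots at 21 °C by the rule used here.

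The neighbours AT3G16660 and AT3G16670, on chromosome 3 with a gap of 3280 bp that holds 2 other annotated genes, were shoot transcripts, both lower at 28 °C. AT3G16670 was at 37.1, 36.8 and 40.5 RPKM in Col-0 shoots at 21 °C and at 0.597, 0.829 and 0.832 RPKM at 28 °C. It was at 27.2, 25.6 and 25.7 RPKM and then 1.54, 1.96 and 1.82 RPKM in hy5-215 shoots, and at 31, 33 and 28.7 RPKM and then 0.235, 0.339 and 0.381 RPKM in shoots labelled chl1.5. At 28 °C the 3 genotypes did not overlap, with hy5-215 the highest and the shoots labelled chl1.5 the lowest.

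AT3G16670 was lower at 28 °C by 3.3 in hy5-215 shoots (SE 0.067), or 14.8-fold. In shoots labelled chl1.5 it was lower by 4.6 (SE 0.067), or 97-fold. It was fitted only because the 21 °C libraries were high (0.949 RPKM without them), so both changes are given as values. With all genes fitted and no filter, the adjusted p was 1.87e-15 in hy5-215 shoots and 6.54e-17 in shoots labelled chl1.5. The mean RPKM in Col-0 shoots was 50.6 times higher at 21 °C. The difference of hy5-215 minus shoots labelled chl1.5 was 1.3 (SE 0.094, adjusted p = 6.64e-08 with no filter). At 28 °C the level was 5.58 times higher in hy5-215 shoots (log2 difference 1.07, adjusted p = 3.94e-09 with no filter). With quantile normalization that log2 difference was 0.99, under the limit.

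AT3G16660 was at 59.3, 58.7 and 67.8 RPKM in Col-0 shoots at 21 °C and at 39.4, 45.6 and 43.3 RPKM at 28 °C. In hy5-215 shoots it went from 51.1, 44.4 and 48.0 RPKM to 23.9, 25.4 and 24.3 RPKM, and in shoots labelled chl1.5 from 46.7, 50.6 and 43.7 RPKM to 27.7, 26 and 25.6 RPKM. All 28 °C libraries lay below all 21 °C libraries of their genotype. The log2 fold changes of -0.94 in hy5-215 (SE 0.065, adjusted p = 4.46e-10) and -0.80 in shoots labelled chl1.5 (SE 0.065, adjusted p = 3.78e-09) were under the limit on size. In hy5-215 the value passed it after rescaling by the median of ratios (-1.03) or quantile normalization (-1.01). The responses differed by -0.13 (SE 0.092, adjusted p = 0.273).

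Per length of gene, AT3G16660 was 1.62 times AT3G16670 in Col-0 shoots at 21 °C and 56.8 times at 28 °C. The ratio went from 1.83 to 13.8 in hy5-215 shoots and from 1.52 to 83.1 in shoots labelled chl1.5. In roots AT3G16670 had no read in any of the 18 libraries and AT3G16660 had 1 read in each of 2 libraries, so no fold is given there. A count of 0 allows up to 3 reads per library.

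The MATE carriers AT2G04040 (DTX1) and AT2G04050 lie side by side on chromosome 2, with a gap of 629 bp. AT2G04050 was at 49.3, 49.1 and 48.8 RPKM in Col-0 shoots at 21 °C, at 34.4, 36.6 and 36.6 RPKM in hy5-215 and at 16.5, 15.8 and 15.9 RPKM in shoots labelled chl1.5. At 28 °C it was at 2.13, 2.34 and 2.49 RPKM in Col-0, at 1.74, 1.48 and 1.65 RPKM in hy5-215 and at 3.57, 3.38 and 3.61 RPKM in shoots labelled chl1.5. The genotypes did not overlap at either temperature. Shoots labelled chl1.5 had the lowest level at 21 °C and the highest at 28 °C.

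AT2G04050 fell by 3.81 in hy5-215 shoots (SE 0.042, adjusted p = 2.70e-21), where it ranked 1 among the falls, and by 1.92 in shoots labelled chl1.5 (SE 0.042, adjusted p = 5.91e-17). In mean RPKM these are 22.1-fold and 4.56-fold, beside 21.13-fold in Col-0 shoots. The difference of hy5-215 minus shoots labelled chl1.5 was -1.90 (SE 0.059, adjusted p = 8.99e-14). At 21 °C the gene was higher in hy5-215 shoots than in shoots labelled chl1.5 by 1.11 (adjusted p = 8.44e-13), or 2.23-fold. At 28 °C the log2 difference was -0.79 (adjusted p = 3.24e-11), and it passed the limit with a pseudocount of 0.1 (-1.07) or limma voom (-1.11).

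AT2G04040 had the same order of genotypes at 21 °C at a lower level. It was at 7.74, 8.22 and 7.96 RPKM in Col-0 shoots at 21 °C, at 5.04, 5.10 and 4.95 RPKM in hy5-215 and at 3.06, 2.74 and 2.94 RPKM in shoots labelled chl1.5. At 28 °C it lay between 1.32 and 1.95 RPKM in all 9 shoot libraries, and the genotypes overlapped. It fell by 1.23 in hy5-215 shoots (SE 0.058, adjusted p = 1.70e-12), and its log2 fold change in shoots labelled chl1.5 was -0.45 (SE 0.058, adjusted p = 1.39e-06), a difference of -0.78 (adjusted p = 7.04e-07). The annotated span of AT2G04040 overlaps that of AT2G04039, which was at 33.5 to 46.4 RPKM in the shoot groups (means). Whether the counting used strand is not given in the sources used here, so reads of the 2 genes may not be told apart and the level of AT2G04040 is uncertain.

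In roots AT2G04050 was low in Col-0 and chl1.5 and higher in hy5-215. It had 5 to 18 reads in Col-0 roots at 21 °C, 5 to 16 reads in chl1.5 roots, and 3.09, 3.02 and 4.58 RPKM (474 to 763 reads) in hy5-215 roots. At 28 °C Col-0 roots held 2 to 14 reads, chl1.5 roots 6 to 12 reads, and hy5-215 roots 2.67, 3.38 and 2.46 RPKM. The hy5-215 libraries stood above all others at both temperatures, and the temperatures overlapped within each genotype.

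AT2G04050 reached the mean of 1 RPKM in roots only through the hy5-215 libraries (0.0559 RPKM without them), so it was fitted there because hy5-215 was high, and the difference at 21 °C is given as a value. It was 2.08 on the log2(RPKM + 1) scale, higher in hy5-215 than in Col-0 roots, and the mean RPKM was 51.7 times higher. With all genes fitted and no filter, the adjusted p of that difference was 1.31e-09. For chl1.5 against Col-0 the difference was -0.01 (adjusted p = 0.971). With temperature, the log2 fold change was -0.03 in Col-0 roots (adjusted p = 0.8), -0.24 in hy5-215 (adjusted p = 0.0601) and -0.03 in chl1.5 (adjusted p = 0.842). AT2G04040 had a mean under 1 RPKM over the root libraries and was not tested there. Its hy5-215 root libraries were at 1.34 to 2.19 RPKM at 21 °C, above those of Col-0 (0.444 to 1.01 RPKM) and chl1.5 (0.325 to 0.550 RPKM).

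Of 11 other MATE genes tested in shoots, 1 rose and 1 fell in hy5-215 (4.23% and 1.92% of all genes) and 1 fell in shoots labelled chl1.5 (2.31% of all genes). The one that fell in both was AT2G04070, also on chromosome 2, by 3.29 in hy5-215 and by 1.36 in shoots labelled chl1.5. Its mean at the higher temperature was 0.122 RPKM or less in each genotype. AT2G04070 thus reached the mean of 1 RPKM needed for a fit only through the lower temperature. The counts above include this gene, but both of its falls are given as values with no test. Its mean went from 9.61 ± 0.28 to 0.0865 ± 0.040 RPKM in hy5-215 (SD, n = 3) and from 1.87 ± 0.097 to 0.122 ± 0.049 RPKM in shoots labelled chl1.5, and it was at 7.16 and 0.0699 RPKM in Col-0. AT3G23550 rose in hy5-215 shoots (1.11, adjusted p = 2.50e-11). None of 8 tested MATE genes of the list rose or fell in roots.

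UGT74E2, on chromosome 1, was at 28.7, 28.5 and 28.12 RPKM in Col-0 shoots at 21 °C and at 1.1, 1.33 and 1.26 RPKM at 28 °C. In hy5-215 shoots it went from 17.1, 18.3 and 17.5 RPKM to 4.17, 4.70 and 4.12 RPKM, and in shoots labelled chl1.5 from 9.59, 9.16 and 9.07 RPKM to 2.54, 2.93 and 2.27 RPKM. The genotypes did not overlap at either temperature. Col-0 was the highest at 21 °C and the lowest at 28 °C.

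UGT74E2 fell by 1.81 in hy5-215 shoots (SE 0.057, adjusted p = 6.63e-15), or 4.07-fold, and by 1.52 in shoots labelled chl1.5 (SE 0.057, adjusted p = 1.00e-13), or 3.6-fold. In Col-0 shoots the mean RPKM was 23.1 times higher at 21 °C. The responses of hy5-215 and of the shoots labelled chl1.5 differed by -0.28 (SE 0.081, adjusted p = 0.0101), which was not past the threshold with a pseudocount of 0.1 (-0.19, adjusted p = 0.174) or with limma voom (-0.17, adjusted p = 0.163).

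Of the 5 genes fitted in roots, UGT74E2 was the one that changed in Col-0, where 4.23% of all genes did. Its levels were 9.82, 8.50 and 7.17 RPKM at 21 °C and 2.52, 2.41 and 1.42 RPKM at 28 °C in Col-0 roots. They were 11.4, 11.9 and 6.52 RPKM and then 6.65, 6.99 and 5.68 RPKM in hy5-215 roots, and 4.56, 6.33 and 6.72 RPKM and then 1.06, 0.749 and 0.945 RPKM in chl1.5 roots. The temperatures overlapped in hy5-215 only.

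UGT74E2 fell by 1.62 in Col-0 roots (SE 0.190, adjusted p = 1.95e-06) and by 1.83 in chl1.5 roots (SE 0.190, adjusted p = 4.39e-07). In hy5-215 roots the log2 fold change was -0.52 (adjusted p = 0.0267), and -0.77 (adjusted p = 0.00108) without the third replicate at 21 °C. The response of hy5-215 minus that of Col-0 was 1.1 (SE 0.268, adjusted p = 0.00934), and that of chl1.5 minus Col-0 was -0.21 (SE 0.268, adjusted p = 0.743). Counted over the 5 genes fitted in roots, 1 changed in Col-0, 1 in hy5-215 (3.2% of all genes) and 3 in chl1.5 (5.34% of all genes).

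UGT74E1, which lies next to UGT74E2 with a gap of 252 bp, was at 1.33 ± 0.17 RPKM in Col-0 shoots at 21 °C and 0.193 ± 0.037 RPKM at 28 °C (SD, n = 3), and its mean was 0.184 RPKM or less in all root groups. Of 13 tested genes of the UGT74 family and of auxin conjugation, 4 rose and none fell in hy5-215 shoots, where 4.23% of all genes rose and 1.92% fell. The largest rises were those of IAR3 (1.87, adjusted p = 1.50e-13) and ILR1 (1.27, adjusted p = 3.10e-14), hydrolases that release auxin from conjugates, and of UGT74F2, a glucosyltransferase of salicylic acid (1.70, adjusted p = 3.06e-18). IAR3 alone rose in shoots labelled chl1.5 (1.03, adjusted p = 7.25e-10), where 2.43% of all genes rose. UGT74C1 rose in hy5-215 roots (1.14, adjusted p = 1.64e-06) and fell by 1.13 in chl1.5 roots (adjusted p = 1.01e-06).

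UGT74E2 is known as a marker of oxidative and mitochondrial stress, and a list of that response was counted beside it. Of 21 tested genes, 5 rose and 2 fell in hy5-215 shoots (4.23% and 1.92% of all genes), and 2 rose and 2 fell in shoots labelled chl1.5 (2.43% and 2.31% of all genes). CYP81D11, a cytochrome P450 (2.91 and 1.87), and GSTU4, a glutathione transferase (2.5 and 1.26), rose in both, while AT2G41730 fell in hy5-215 shoots (-1.45, adjusted p = 7.71e-14) and GSTU24 in shoots labelled chl1.5 (-1.40, adjusted p = 3.21e-14). In Col-0 shoots 2 genes of the list rose and 5 fell, where 5.24% of all genes passed in either direction. Of 22 genes tested in roots, 0 rose and 3 fell in Col-0 (4.23% of all genes changed). In hy5-215 roots 4 rose and 1 fell (3.2%), and in chl1.5 roots 0 rose and 4 fell (5.34%). The root response was higher in hy5-215 than in Col-0 for 11 of 22 genes and lower for none, where it was higher for 9.95% of all genes. The largest differences were those of AT2G41730 (1.32, adjusted p = 9.54e-07), UPOX (1.26, adjusted p = 0.000152) and OM66 (0.78, adjusted p = 0.017).

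The 9 genes ordered their groups differently. AT3G59930 and AT5G33355 were highest in hy5-215 roots, NATA1 and NATA2 in hy5-215 shoots at 28 °C, and the other 5 in Col-0 shoots at 21 °C. In shoots at 21 °C, AT2G04040, AT2G04050, UGT74E2 and, by a small margin, NATA2 followed the order Col-0, hy5-215, then shoots labelled chl1.5, with no overlap between neighbours. Compared between hy5-215 and the shoots labelled chl1.5 at 21 °C, AT3G59930 and AT2G04050 were higher in hy5-215, where 0.785% of all genes differed and 0.577% were higher in hy5-215. At 28 °C, NATA1 and AT3G16670 were higher in hy5-215, where 1.68% of all genes differed and 1.5% were higher in hy5-215. NATA1 was fitted only through the 28 °C libraries and AT3G16670 only through those at 21 °C. AT5G33355, which was fitted in shoots only because hy5-215 was high, differed by 3.11 at 21 °C and by 1.2 at 28 °C and is given as a value.

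Over the 18 shoot libraries, the genes whose log2(RPKM + 1) followed a member most closely had Pearson r between 0.956 and 0.999. These values describe libraries that share 6 groups, and so mostly the differences between groups. The nearest genes were AT4G36700 (r 0.999), MGL, a methionine gamma-lyase (0.998), and AOC1, an allene oxide cyclase (0.998), for NATA1, and the glycine-rich protein gene GRP5 (0.995), AT1G56300 (0.995) and SCPL49 (0.992) for AT3G59930. They were AT4G35160 (0.997), NAS3, a nicotianamine synthase (0.993), and AT5G02890 (0.991) for AT3G16670, and AGD2 (0.994), AT2G28620 (0.993) and AT4G14330 (0.992) for AT2G04050. For UGT74E2 the nearest was AOX1A, the alternative oxidase of mitochondria (0.991), followed by SAHH2 (0.988) and AO (0.986). Over the 18 root libraries r with UGT74E2 was 0.602 for AOX1A, -0.11 for SAHH2 and 0.29 for AO.

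For the other members the nearest genes were OPT3 (0.978), HOG1 (0.977) and AT5G67220 (0.976) for NATA2, and AT3G22235 (0.985), AT5G43180 (0.965) and AT3G60415 (0.963) for AT5G33355. ANT (0.962), MIPS3 (0.958) and AT2G41820 (0.956) were nearest to AT3G16660, and AT5G14580 (0.992), LOS1 (0.986) and AT3G12670 (0.982) to AT2G04040. Among the paralogs, r over the shoot libraries was 0.954 for AT2G04040 and AT2G04050, 0.915 for NATA1 and NATA2, 0.789 for AT3G16660 and AT3G16670, and -0.28 for AT3G59930 and AT5G33355.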

How the data were processed

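The deposited matrix holds RPKM values that the authors made from RNA-seq reads; the submitters' processing notes name STAR 2.7.0a, edgeR 3.36.0 and TAIR10. The counting tool, its use of strand and the annotation release are not given in the sources used here. With the gene spans of TAIR10.1, introns included, 792101 of 792136 values above 0 were whole reads within 0.01 read, which gave the depths and read counts. RPKM sets levels relative to the other transcripts of a library, so gene spans and abundant transcripts shift it. For genes whose mean over the fitted libraries reached 1 RPKM, group means of log2(RPKM + 1) were estimated by limma 3.58.1 (R 4.3.3), 6 per organ or 12 over all 36 libraries, with an eBayes trend and Benjamini-Hochberg adjustment. Each comparison of other shoots with Col-0 shoots was left as a description. The fits were tested on simulated data. Tables were made with Python 3.11.15, numpy 2.4.6, scipy 1.17.1 and pandas 2.3.3.

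The 9 genes, the 6 lists and the tests were chosen with earlier results of these data known. The text names all 9 genes, up to 3 genes per list and comparison with the largest absolute log2 fold change among those past the call, and the 3 genes most correlated with each member. Alternatives were other pseudocounts, filters and normalizations, no trend, the compared groups only, a replicate block, each replicate left out, and limma voom on the reads. No sequence is shown, since none was used here. The study's methods call the 3 replicates of each group independent, and p-values measure the spread between them.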

Additional observations from a re-analysis of the deposited data

Results flagged for a closer look

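These values are differences between 2 responses to 28 °C, on the log2(RPKM + 1) scale, that passed their test at an adjusted p under 0.05 (limma). Between shoots, hy5-215 minus shoots labelled chl1.5, they were 1.33 for NATA1, -0.12 for NATA2, -0.54 for AT3G59930, -1.90 for AT5G33355, 1.3 for AT3G16670, -0.78 for AT2G04040, -1.90 for AT2G04050 and -0.28 for UGT74E2. The test passed for 42% of all genes, and the shoots labelled chl1.5 held NRT1.1 transcript. In roots, hy5-215 minus Col-0 was -1.01 for AT3G59930 and 1.1 for UGT74E2, and chl1.5 minus Col-0 was 1.54 for AT3G59930 and 1.78 for AT5G33355.

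Between organs, the response in roots minus that in shoots was in hy5-215 -0.19 for NATA2, -3.37 for AT3G59930, 1.22 for AT5G33355, 0.86 for AT2G04040, 3.57 for AT2G04050 and 1.29 for UGT74E2. In the groups labelled chl1.5, where roots lacked and shoots held NRT1.1 transcript, it was -0.40 for NATA2, -1.36 for AT3G59930, 1.63 for AT5G33355, 0.53 for AT2G04040 and 1.89 for AT2G04050. These tests passed for 62.3% and 65.8% of all genes. The value of NATA2 in hy5-215 did not pass after rescaling by the median of ratios (-0.13, adjusted p = 0.0544). With quantile normalization it was -0.050 (adjusted p = 0.506). For AT2G04050 in the groups labelled chl1.5, limma voom on the reads gave 1.72, which did not pass (adjusted p = 0.0655). In the fits of a single organ, AT2G04050 in roots and AT5G33355 in shoots reached the filter only because hy5-215 was high. The organ differences come from the fit of all 36 libraries, with the filter over all of them. No cause was tested for any of the differences flagged here.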

How the results depend on the processing

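Over 91 values of single members and 2745 refits, 2701 kept their direction and their side of the threshold, 18 lost the call, 7 gained it and 19 turned sign. The count of members whose shoot response differed between hy5-215 and the shoots labelled chl1.5 was 8, was 5 with limma voom on the reads, and lay between 6 and 8 with 1 replicate left out. The count called in hy5-215 roots went from 1 to 0 with quantile normalization, where AT5G33355 was at -0.97. With 1 replicate left out, every other count of members was as in the full fit. For the differences of shoot response, NATA1 was at 0.71 (adjusted p = 0.383) with limma voom, with 5 reads at most per group at 21 °C, and AT5G33355 was at -1.07 with a pseudocount of 0.1 (adjusted p = 0.120). The causes were not tested.

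Among the values that turned sign, AT5G33355 in the difference of shoot responses had passed its test (0.79 with limma voom), and the other 18 had not. With quantile normalization these were -0.023 for AT3G16660 in shoots at 21 °C (-0.025 to 0.079 with 1 replicate left out), -0.023 for NATA2 in shoots at 28 °C, -0.022 for AT2G04050 in the root response of chl1.5 minus Col-0 (-0.020 to 0.041) and 0.023 for AT2G04050 in chl1.5 against Col-0 roots at 21 °C (-0.035 to 0.021). With limma voom AT2G04050 was at 0.057 in that last comparison and at 0.38 in the root response of hy5-215 minus Col-0. NATA2 ranged from -0.0022 to 0.074 in the root response of hy5-215 minus Col-0 and from -0.047 to 0.030 in chl1.5 against Col-0 roots at 21 °C, with 1 replicate left out.

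The replicate numbers were not used as pairs in the main fits. The correlation of equally numbered libraries was above 0.1 in 6 of 9 root pairs (-0.27 to 0.29) and 5 of 9 shoot pairs (-0.26 to 0.48). Unequally numbered libraries were not correlated, so these values cannot decide whether the numbers pair the samples. With the replicate block, 7 and 5 members were called in hy5-215 shoots and shoots labelled chl1.5 and 8 differed between them, and in roots 1, 1 and 3 were called for Col-0, for hy5-215 and for chl1.5, the counts without it.

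Counts over all genes moved more. In shoots, 1035 calls in hy5-215 became 661 with a filter of 5 RPKM and 1602 with limma voom, and 797 in shoots labelled chl1.5 became 1373 with a pseudocount of 0.1, 519 with the filter and 1476 with voom. Between hy5-215 and those shoots, 132 at 21 °C became 244, 54 and 271 under the same settings, and 283 at 28 °C became 492, 150 and 533. In roots, 750 in Col-0 became 1170 with the pseudocount and 1227 with voom, 568 in hy5-215 became 888 and 949, and 99 between chl1.5 and Col-0 at 21 °C became 189 and 194. The 541 between hy5-215 and Col-0 at 21 °C became 332 with the filter and 853 with voom. The 417 differences of root response of chl1.5 minus Col-0 became 238 with the compared groups only and between 206 and 276 without 1 of 5 libraries (Col-0 replicates 1 and 2 and chl1.5 replicates 2 and 3 at 21 °C, chl1.5 replicate 3 at 28 °C). Rescaling by the median of ratios moved the median of all genes by -0.10 in shoots labelled chl1.5 and the share of rises among calls from 51.2% to 37.5%, and in chl1.5 the share of organ differences higher in roots from 45.6% to 55.9%.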
